A study of Homo sapiens with 9 samples.

Results

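The genes described here were 41 ER chaperones, ER-associated degradation (ERAD) genes, sensors and translocon genes of the unfolded protein response, of the 26485 genes in each deposited table. They were taken by gene symbol, found in both tables, and split by role into 20 chaperones and folding enzymes, 10 ERAD genes, 8 sensors and regulators and 3 translocon genes. All 41 passed the filter on low values in every comparison. The cells were MDA-MB-231, a human triple-negative breast cancer line, stably expressing a non-specific (NS) shRNA, ASAH1 shRNA #1 or ASAH1 shRNA #2, with 3 libraries per group and no other treatment. ASAH1 encodes acid ceramidase, the lysosomal enzyme that splits ceramide into sphingosine and a fatty acid, and the study silenced it to see how the growth and gene expression of these cells depended on it. The 3 libraries of a group were labelled as biological replicates, the labels do not say whether they came from separate infections, and 1 control hairpin served both comparisons.

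The unfolded protein response is the program by which a cell adjusts the folding capacity of the endoplasmic reticulum (ER) to its load of secretory and membrane proteins. Its sensors in the ER membrane are IRE1 alpha (ERN1), PERK (EIF2AK3) and ATF6. IRE1 splices the XBP1 messenger, PERK phosphorylates eIF2 alpha and so favours translation of ATF4, and ATF6 is cut in the Golgi to free a transcription factor. XBP1 and ATF6 are known to act on chaperone, folding and ERAD genes, many of which carry an ER stress response element in the promoter, and PERK signalling is known for DDIT3, ATF3 and TRIB3. BiP (HSPA5) binds unfolded chains and keeps the sensors in check, and the ERAD machinery returns misfolded chains to the cytosol for degradation.

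Each library held 23806003 to 49659106 reads on genes. ASAH1 normalised counts were 29.6% of the NS shRNA mean with shRNA #1 and 16.1% with shRNA #2, with all 3 libraries of either hairpin below all 3 NS shRNA libraries. The defining genes of this line were present in all 9 libraries, VIM at 1174 to 2128, CD44 at 656 to 894 and AXL at 1002 to 1387 CPM (reads scaled to the same total in each library, with no correction for gene length), while ESR1 and PGR reached at most 0.084 CPM. ERBB2 was at 61.2 to 105 CPM and EPCAM at 21.3 to 35.7 CPM. Of the markers of other cells, ADIPOQ was listed at 0, PTPRC reached 0.258 CPM and PECAM1 1.09 to 3.1 CPM.

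Levels were first compared between genes in the NS shRNA libraries, as TPM (reads per kilobase, scaled to the same total in each library) computed with the length of the Ensembl canonical transcript (means ± SD, n = 3). CALR, the soluble lectin chaperone calreticulin, was the highest of the 41 at 2258 ± 20.5 TPM. P4HB, the classical protein disulfide isomerase, followed at 1101 ± 18.3 TPM and HSP90B1, the Hsp90 of the ER, at 1040 ± 18.5 TPM. CANX, the membrane lectin calnexin, stood at 714 ± 40.5 TPM and HSPA5 at 541 ± 16.5 TPM. The first 5 places were thus held by chaperones and folding enzymes, and each step between them was larger than the SDs of its neighbours. Further down, PDIA3 and MANF lay at 242 ± 4 and 240 ± 10.9 TPM and could not be ordered beyond their spread.

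The sensors and XBP1 lay below these 5 genes on the same TPM scale, but not all of them lay below every chaperone. XBP1 stood at 150 ± 10.1 TPM, with a mean above those of 9 of the 20 chaperones and folding enzymes, ATF6 at 33.7 ± 4.28 TPM, above 5 of them, EIF2AK3 at 16.6 ± 1.94 TPM and ERN1 at 1.46 ± 0.283 TPM. DERL3, a Derlin of the retrotranslocation machinery, was the lowest member at 0.63 ± 0.251 TPM. It had 11 to 37 reads per library, so that its fold changes are the least precise of the set, and ERN1 had 112 to 950 reads.

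Promoter sequences were inspected because the response is known for short elements near the start of its target genes. RefSeq promoter windows (GRCh38.p14, 250 bases before to 50 after a start, 300 in all) were found for 38 of the 41 members, in 47 windows since some genes have several starts. The ER stress response element (ERSE) was searched on both strands as CCAAT followed by 9 bases of any kind and CCACG, ERSE-II as ATTGG followed by 1 base of any kind and CCACG, and the unfolded protein response element (UPRE) as TGACGTGG. ERSE was found in 7 of the 38 members (18.4%), HSPA5, HSP90B1, PDIA6, CANX, CALR, CRELD2 and XBP1, beside 25 of all 27305 genes with a window (0.0916%). ERSE-II was found in HYOU1, HERPUD1 and SDF2L1, 3 members (7.89%) beside 19 of all genes (0.0696%). UPRE was found in 4 members (10.5%), HYOU1, DNAJC10, TXNDC5 and TXNDC11, beside 253 of all genes (0.927%). The members are textbook targets of these factors, so the motif shares describe the list and not the knockdown.

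The 250 bases upstream of the start are shown 5′ to 3′ in the direction of transcription for 7 of these genes that span the responses described here, with the motifs in capitals. They are HSPA5 (chr9:125241344-125241593, minus strand), XBP1 (chr22:28800570-28800819, minus strand, the first of its starts), HYOU1 (chr11:119057206-119057455, minus strand), HERPUD1 (chr16:56931892-56932141, plus strand), HSP90B1 (chr12:103930160-103930409, plus strand), CRELD2 (chr22:49918384-49918633, plus strand) and CALR (chr19:12938359-12938608, plus strand).
HSPA5: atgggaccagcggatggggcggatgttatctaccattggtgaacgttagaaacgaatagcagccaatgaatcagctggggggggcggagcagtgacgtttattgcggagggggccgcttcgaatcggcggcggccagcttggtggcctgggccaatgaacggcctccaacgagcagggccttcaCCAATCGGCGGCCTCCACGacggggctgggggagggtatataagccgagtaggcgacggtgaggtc
XBP1: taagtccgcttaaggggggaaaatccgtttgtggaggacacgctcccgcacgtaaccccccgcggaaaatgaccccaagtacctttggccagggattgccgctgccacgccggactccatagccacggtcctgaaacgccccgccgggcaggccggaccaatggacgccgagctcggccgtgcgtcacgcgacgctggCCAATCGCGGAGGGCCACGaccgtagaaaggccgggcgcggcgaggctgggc
HYOU1: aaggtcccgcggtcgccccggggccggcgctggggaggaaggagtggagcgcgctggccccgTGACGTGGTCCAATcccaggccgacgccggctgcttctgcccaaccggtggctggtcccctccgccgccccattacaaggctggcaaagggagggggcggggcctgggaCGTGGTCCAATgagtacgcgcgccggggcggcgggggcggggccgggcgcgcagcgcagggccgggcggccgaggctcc
HERPUD1: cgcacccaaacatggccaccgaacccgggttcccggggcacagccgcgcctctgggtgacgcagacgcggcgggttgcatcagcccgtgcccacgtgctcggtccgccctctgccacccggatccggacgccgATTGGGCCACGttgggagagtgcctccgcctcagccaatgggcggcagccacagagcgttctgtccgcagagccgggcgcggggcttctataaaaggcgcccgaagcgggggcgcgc
HSP90B1: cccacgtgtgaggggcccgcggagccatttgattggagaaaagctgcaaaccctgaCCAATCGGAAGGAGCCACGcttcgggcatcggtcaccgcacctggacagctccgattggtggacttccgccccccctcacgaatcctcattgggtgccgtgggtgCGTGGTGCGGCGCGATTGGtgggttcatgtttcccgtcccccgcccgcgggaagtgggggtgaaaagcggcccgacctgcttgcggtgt
CRELD2: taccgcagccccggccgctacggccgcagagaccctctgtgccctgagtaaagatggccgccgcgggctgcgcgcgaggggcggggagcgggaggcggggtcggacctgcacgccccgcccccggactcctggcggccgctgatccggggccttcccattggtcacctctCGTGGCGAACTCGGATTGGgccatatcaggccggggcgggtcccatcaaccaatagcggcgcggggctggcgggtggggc
CALR: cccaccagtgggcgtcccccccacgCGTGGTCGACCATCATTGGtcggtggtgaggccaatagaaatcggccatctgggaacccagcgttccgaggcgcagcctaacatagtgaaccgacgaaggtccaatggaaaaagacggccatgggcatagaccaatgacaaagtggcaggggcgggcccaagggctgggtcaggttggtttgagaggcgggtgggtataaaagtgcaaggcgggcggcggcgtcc
The ERSE began 66 bases before the start in HSPA5 and 52 bases before it in XBP1, both in the sense orientation, and 80 and 225 bases before it in CRELD2 and CALR, both on the opposite strand. HSP90B1 held one copy in each orientation, at 194 and 89 bases. HERPUD1 held ERSE-II at 117 bases and HYOU1 held it at 185 and 79 bases on the opposite strand, the first of these overlapping the UPRE at 188 bases. In CANX the same genomic element was seen from 3 of its starts.

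Tests against NS shRNA were run for either hairpin within its own table, by limma on log2(normalised count + 1), and shRNA #2 was tested against shRNA #1 by edgeR on the reads of all 9 libraries, a gene being called at a Benjamini-Hochberg adjusted p below 0.05 over all genes tested. With shRNA #1, 7 of the 41 members were higher (17.1%) and 18 were lower (43.9%), beside 32.8% and 33.3% of all 14341 genes tested in that comparison. With shRNA #2, 19 were higher (46.3%) and 10 were lower (24.4%), beside 33.5% and 33.4% of 14250 genes. Directly compared, 26 members were higher with shRNA #2 than with shRNA #1 (63.4%) and 4 were lower (9.76%), beside 31.4% and 32.5% of 14381 genes. The median log2 fold change of the members was -0.14, 0.16 and 0.29 in the 3 comparisons, and that of all genes tested was 0.00, 0.01 and -0.00. Both comparisons with NS shRNA use the same 3 control libraries, so their values are given side by side.

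**Figure D1:**
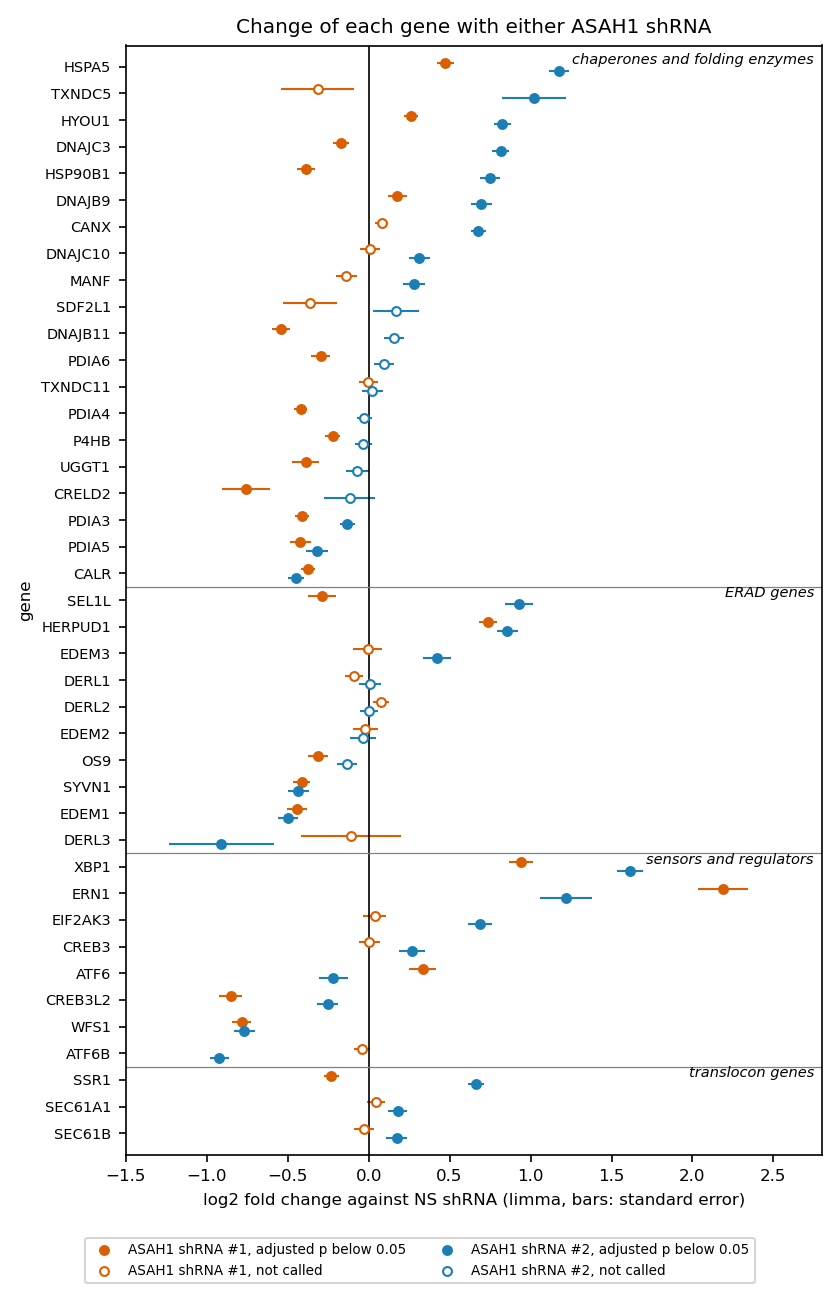
Log2 fold change of each of the 41 genes against NS shRNA (x axis, limma, bars show the standard error, 3 libraries per group), grouped by role and ordered by the change with ASAH1 shRNA #2; filled points passed an adjusted p of 0.05. Among the chaperones the shRNA #1 points lie mostly left of 0 (11 of 20 lower, beside 33.3% of all genes tested). The shRNA #2 point lies right of the shRNA #1 point for every chaperone but CALR. HERPUD1, XBP1 and ERN1 lie right of 0 with both hairpins.

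Chaperones and folding enzymes went apart between the hairpins. With shRNA #1, 3 of the 20 were higher (15%) and 11 lower (55%), beside 32.8% and 33.3% of all genes tested. With shRNA #2, 9 were higher (45%) and 3 lower (15%), beside 33.5% and 33.4%. In the direct test by edgeR 17 of the 20 (85%) were higher with shRNA #2 than with shRNA #1, beside 31.4% of all genes. The median log2 fold changes were -0.31, 0.16 and 0.45, beside 0.00, 0.01 and -0.00 over all genes tested. By edgeR 0 of the 20 were lower, with 1 (CALR) below 0 at an unadjusted p under 0.05, and DESeq2 and limma also called 0 lower. CALR was called lower by edgeR with upper quartile scaling, with a mean of at least 50 and without shRNA #2 replicate 3.

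BiP, the central Hsp70 chaperone of the ER, is encoded by HSPA5 at chr9:125234853-125241382. On 1 scale for all 9 libraries (reads divided by 1 set of DESeq2 size factors) its normalised counts were 28385, 29506 and 26855 with NS shRNA, 37362, 38944 and 41406 with shRNA #1, and 64593, 59699 and 67234 with shRNA #2. The groups did not overlap, and shRNA #1 lay between NS shRNA and shRNA #2. The log2 fold change was 0.47 (SE 0.0538, limma adjusted p = 4.3e-05) with shRNA #1 and 1.18 (SE 0.0607, limma adjusted p = 1e-07) with shRNA #2, and the hairpins differed by 0.69 (SE 0.0571, edgeR adjusted p = 1.2e-06).

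HYOU1 encodes GRP170, a nucleotide exchange factor that resets BiP after each folding cycle. Its normalised counts were 10204, 10901 and 10766 with NS shRNA, 12507, 12980 and 12688 with shRNA #1, and 19312, 18449 and 18695 with shRNA #2. It showed the same order as HSPA5 without overlap, with log2 fold changes of 0.26 (SE 0.044, limma adjusted p = 0.00057) and 0.83 (SE 0.0507, limma adjusted p = 3.2e-07). The third chaperone higher with both was DNAJB9, the BiP co-chaperone ERdj4, at log2 fold changes of 0.18 and 0.70. Its call with shRNA #1 was lost without NS shRNA replicate 1 (0.15) or 3 (0.16), and without shRNA #1 replicate 1 (0.18) or 3 (0.15).

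The other J-proteins of BiP did not follow it with shRNA #1. DNAJB11 (ERdj3), which hands unfolded chains to BiP, gave 3528, 3363 and 3223 normalised counts with NS shRNA, 2214, 2339 and 2398 with shRNA #1, and 3667, 3578 and 4032 with shRNA #2. All shRNA #1 libraries were below all others. The change was -0.54 on the log2 scale (SE 0.0554, limma adjusted p = 2.2e-05) with shRNA #1 and 0.16 (SE 0.0642, limma adjusted p = 0.051) with shRNA #2. DNAJC3 (p58IPK) had 2284, 2333 and 2391 normalised counts with NS shRNA, 2079, 2101 and 2039 with shRNA #1, and 4083, 4195 and 4048 with shRNA #2. It was lower with shRNA #1 at -0.17 and higher with shRNA #2 at 0.82. DNAJC10 (ERdj5), a reductase that prepares chains for ERAD, was at 0.01 and 0.31, called with shRNA #2 alone, and SDF2L1, a partner of ERdj3, was called with neither (-0.36 and 0.17).

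HSP90B1 (GRP94), a chaperone of integrins and Toll-like receptors, was called in opposite directions. The normalised counts were 39895, 39311 and 36334 with NS shRNA, 28160, 29133 and 31184 with shRNA #1, and 63459, 61647 and 69438 with shRNA #2. No group overlapped another, shRNA #1 being lowest and shRNA #2 highest. The log2 fold changes were -0.39 (SE 0.0548, limma adjusted p = 0.00019) and 0.75 (SE 0.0613, limma adjusted p = 2.1e-06).

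The lectin chaperones, which bind glucosylated N-glycans, split from each other. CANX was at 0.08 with shRNA #1, where it was not called, and at 0.68 with shRNA #2, with 75114, 75554 and 73176 normalised counts against 45454, 46869 and 47713 with NS shRNA. CALR, in contrast, had 58106, 57767 and 55492 normalised counts with NS shRNA, 42783, 44089 and 45140 with shRNA #1, and 41311, 41037 and 42974 with shRNA #2. Every knockdown library was below every control library, the fold changes were -0.38 and -0.45, and the difference between the hairpins, -0.09 (SE 0.0391, edgeR adjusted p = 0.071), was not called. UGGT1, which re-glucosylates misfolded glycoproteins, was at -0.39 with shRNA #1 and, not called, at -0.07 with shRNA #2.

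Protein disulfide isomerases form and rearrange disulfide bonds. With shRNA #1, PDIA3, PDIA4, PDIA5, PDIA6 and P4HB were lower, with log2 fold changes between -0.42 and -0.22, and their shRNA #1 libraries lay below all NS shRNA libraries. TXNDC5, TXNDC11 and DNAJC10, which also carry thioredoxin domains, were not called with shRNA #1. PDIA5 shares 12.1% of its exon bases with SEC22A in the annotation. With shRNA #2 PDIA3 (-0.13) and PDIA5 (-0.32) were lower, while PDIA4, PDIA6 and P4HB were at -0.03, 0.09 and -0.03 and not called. The PDIA3 call was lost without NS shRNA replicate 1 (-0.12) or 2 (-0.13) and without shRNA #2 replicate 1 (-0.13) or 2 (-0.12). It was also lost with no filter and without the intensity trend of limma.

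TXNDC5 (ERp46) is the sixth of them. It gave 161, 266 and 148 normalised counts with NS shRNA, 122, 145 and 185 with shRNA #1, and 391, 324 and 420 with shRNA #2. The NS shRNA and shRNA #1 libraries overlapped (-0.31, SE 0.226, limma adjusted p = 0.24), and all shRNA #2 libraries were above both groups (1.02, SE 0.2, limma adjusted p = 0.001). In the annotation 61% of its exon bases also belong to the readthrough gene BLOC1S5-TXNDC5, which had 0 reads in the 9 libraries, so its level is uncertain where reads on shared bases were not counted. TXNDC11 was called in no comparison, at -0.00 and 0.02.

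The small ER-resident proteins MANF and CRELD2 are known as ER stress genes. MANF was at -0.14 with shRNA #1, not called, and at 0.28 with shRNA #2. CRELD2 had 805, 806 and 609 normalised counts with NS shRNA, 371, 410 and 535 with shRNA #1, and 689, 537 and 835 with shRNA #2. It had the largest drop of the chaperone group with shRNA #1, -0.76 (SE 0.149, limma adjusted p = 0.0015), all 3 libraries below NS shRNA, and with shRNA #2 the groups overlapped at -0.12 (SE 0.157, limma adjusted p = 0.53).

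**Figure D2:**
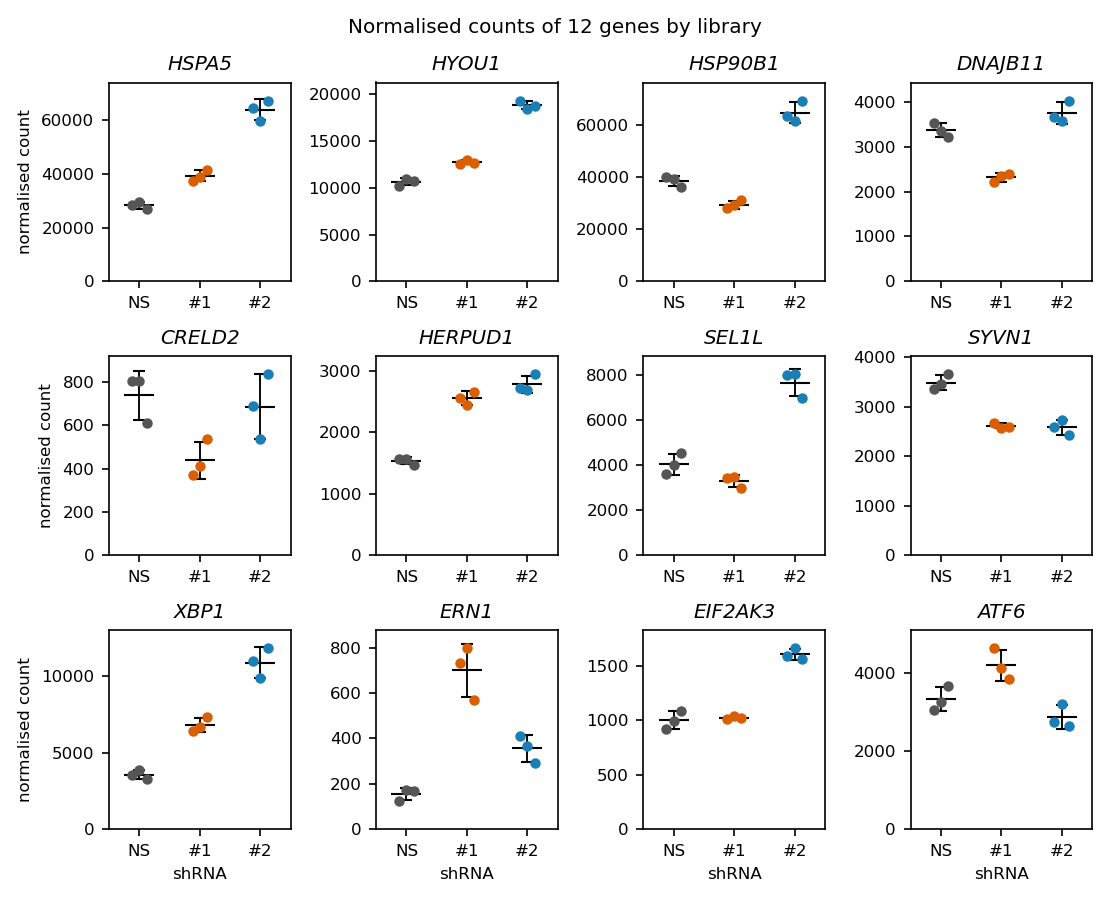
Normalised counts (y axis, from 0, on 1 scale for all 9 libraries) of 12 genes in each library, by shRNA (x axis); points are libraries, the bar is the mean and the whiskers 1 SD (n = 3). HSPA5, HYOU1 and XBP1 step up from NS shRNA to #1 to #2, HSP90B1 and DNAJB11 are lowest with #1, ERN1 is highest with #1, and SYVN1 is lower with both.

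Summed over the 20 chaperones and folding enzymes, which are dominated by the most abundant of them, the group took 8301, 8338 and 8082 CPM with NS shRNA. The sums were 7453, 7676 and 7820 with shRNA #1 and 9845, 9664 and 10013 with shRNA #2. The 3 groups did not overlap, with ratios to the NS shRNA mean of 0.928 and 1.19. The sums are given as a description. The genes were chosen with earlier results of these data known, and a permutation of 3 against 3 libraries cannot give p below 0.1. In bulk RNA, a change in every cell and a change in some of the cells cannot be told apart.

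**Figure D3:**
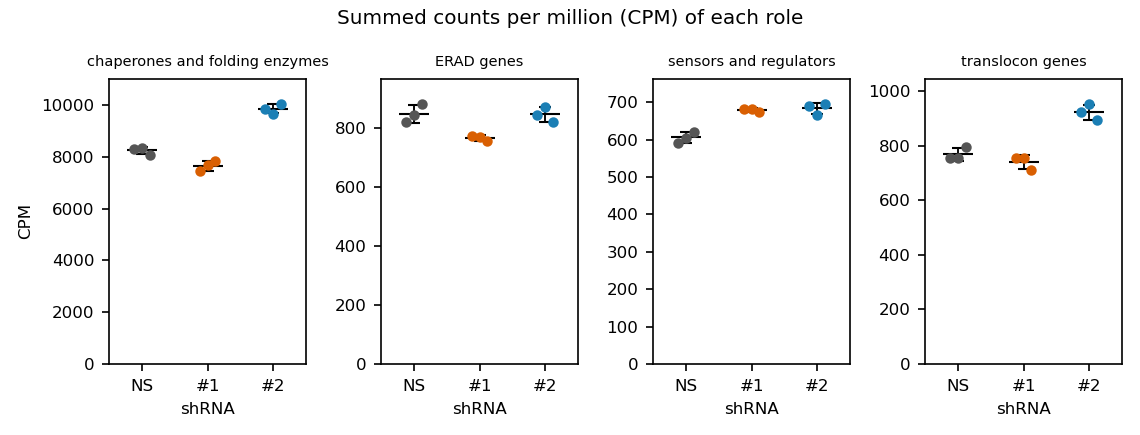
Summed CPM of each role (y axis, from 0) in each library, by shRNA (x axis); points are libraries, the bar is the mean and the whiskers 1 SD (n = 3). The chaperone sum is lowest with #1 and highest with #2, and the translocon sum is highest with #2 (896 to 951 against 753 to 796 with NS shRNA).

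Of the 10 ERAD genes, 1 was higher (10%) and 4 were lower (40%) with shRNA #1, beside 32.8% and 33.3% of all genes tested. With shRNA #2, 3 were higher and 3 lower. The latter shares, 30% in each direction, are near those of all genes (33.5% and 33.4%). The median log2 fold changes were -0.10 and -0.01. Among these 10 genes are parts of the HRD1 complex, which recognises misfolded chains in the ER, moves them through the membrane and marks them with ubiquitin.

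HERPUD1, a membrane scaffold of the HRD1 complex and a classical stress-induced gene, was the ERAD gene higher with both hairpins. Its normalised counts were 1573, 1570 and 1470 with NS shRNA, 2563, 2452 and 2667 with shRNA #1, and 2724, 2690 and 2945 with shRNA #2. Every knockdown library exceeded every control library. The log2 fold changes were 0.74 (SE 0.0558, limma adjusted p = 3.1e-06) and 0.86 (SE 0.0628, limma adjusted p = 1e-06), and the difference between the hairpins was 0.11 (SE 0.0569, edgeR adjusted p = 0.11).

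SYVN1 encodes HRD1 itself, the ubiquitin ligase, and SEL1L its adaptor. SYVN1 had 3364, 3452 and 3654 normalised counts with NS shRNA, 2680, 2580 and 2592 with shRNA #1, and 2602, 2723 and 2426 with shRNA #2, lower with both at -0.41 (SE 0.0501, limma adjusted p = 6.6e-05) and -0.43 (SE 0.0626, limma adjusted p = 0.00013). SEL1L had 3600, 4000 and 4521 normalised counts with NS shRNA, 3441, 3474 and 2992 with shRNA #1, and 7995, 8020 and 6967 with shRNA #2. The ligase and its adaptor thus parted with shRNA #2, where all SEL1L libraries were above all others. SEL1L was at -0.29 (SE 0.0874, limma adjusted p = 0.015) with shRNA #1 and 0.93 (SE 0.0864, limma adjusted p = 5.4e-06) with shRNA #2. Without the intensity trend of limma its shRNA #1 call was lost.

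EDEM1, a mannosidase-like lectin that sends glycoproteins to ERAD, was lower with both hairpins. Its normalised counts were 4738, 5325 and 5382 with NS shRNA, 3931, 3774 and 3650 with shRNA #1, and 3644, 3717 and 3564 with shRNA #2. The log2 fold changes were -0.44 (SE 0.0594, limma adjusted p = 0.00013) and -0.50 (SE 0.062, limma adjusted p = 4.4e-05). Its relative EDEM3 was called with shRNA #2 alone, at 0.42, and EDEM2 with neither (-0.02 and -0.03). OS9, a lectin of the same complex, was at -0.31 with shRNA #1 and, not called, at -0.13 with shRNA #2. In the annotation 15.9% of its exon bases overlap the noncoding gene AGAP2-AS1.

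Derlins form part of the channel through which ERAD substrates leave the ER. DERL1 and DERL2 lay between -0.09 and 0.07 in both comparisons with NS shRNA and were not called. DERL3 gave 18.6, 38 and 21.2 normalised counts with NS shRNA, 26.6, 18.5 and 24.1 with shRNA #1, and 11.4, 13.2 and 13.5 with shRNA #2. Its shRNA #2 libraries were below all others (-0.91, SE 0.325, limma adjusted p = 0.029), and this call was lost without NS shRNA replicate 2 (-0.61) and without shRNA #2 replicate 1 (-0.84) or 2 (-0.94).

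Against NS shRNA the sensors and regulators held the largest changes of the 41 genes. With shRNA #1, 3 of the 8 were higher (37.5%) and 2 lower (25%), near the 32.8% and 33.3% of all genes tested. With shRNA #2, 4 were higher and 4 lower (50% each), beside 33.5% and 33.4% of all genes. The median log2 fold changes of the 8 were 0.02 and 0.03.

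ERN1 (chr17:64039080-64130819) encodes IRE1 alpha, the kinase and endonuclease that splices XBP1. It had 122, 171 and 166 normalised counts with NS shRNA, 732, 798 and 572 with shRNA #1, and 411, 367 and 291 with shRNA #2. All knockdown libraries exceeded all controls, and shRNA #1 exceeded shRNA #2 without overlap. The log2 fold change was 2.19 (SE 0.155, limma adjusted p = 2e-06) with shRNA #1 and 1.22 (SE 0.161, limma adjusted p = 6.6e-05) with shRNA #2, and shRNA #2 was below shRNA #1 at -0.995 (SE 0.152, edgeR adjusted p = 0.00015). The order of the hairpins was therefore opposite to that of HSPA5.

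XBP1 (chr22:28794555-28800597) encodes the transcription factor downstream of IRE1. The normalised counts were 3560, 3877 and 3268 with NS shRNA, 6455, 6708 and 7363 with shRNA #1, and 11017, 9874 and 11845 with shRNA #2. They stepped up from group to group without overlap, as those of HSPA5 did. The log2 fold changes were 0.94 (SE 0.0722, limma adjusted p = 3.4e-06) and 1.61 (SE 0.0814, limma adjusted p = 9.4e-08), and the hairpins differed by 0.66 (SE 0.0814, edgeR adjusted p = 2.8e-05). Counts per gene do not separate spliced from unspliced XBP1 messenger, so the activity of IRE1 was not measured here.

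EIF2AK3 (chr2:88556741-88691518) encodes PERK, the kinase of eIF2 alpha. Its normalised counts were 922, 994 and 1088 with NS shRNA, 1011, 1041 and 1023 with shRNA #1, and 1596, 1663 and 1564 with shRNA #2. The shRNA #1 libraries fell inside the NS shRNA range (0.04, SE 0.0701, limma adjusted p = 0.65), and the shRNA #2 libraries lay above both groups (0.69, SE 0.0737, limma adjusted p = 1.5e-05).

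ATF6 (chr1:161766298-161977574) went the other way. It had 3071, 3273 and 3680 normalised counts with NS shRNA, 4642, 4132 and 3856 with shRNA #1, and 2754, 3223 and 2648 with shRNA #2. The shRNA #1 libraries were above all others, while NS shRNA and shRNA #2 overlapped. The log2 fold change was 0.33 (SE 0.0824, limma adjusted p = 0.0055) with shRNA #1 and -0.22 (SE 0.0871, limma adjusted p = 0.047) with shRNA #2, and the hairpins differed by -0.56 (SE 0.0917, edgeR adjusted p = 0.00024). The shRNA #2 call was lost without NS shRNA replicate 2 (-0.23) or 3 (-0.15) and without shRNA #2 replicate 1 (-0.19) or 3 (-0.16). It was also lost without the intensity trend, with no filter, and in 1 limma fit of all 9 libraries.

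ATF6B, the less potent relative of ATF6, was called with shRNA #2 alone. It had 4476, 4299 and 4603 normalised counts with NS shRNA, 4450, 4397 and 4154 with shRNA #1, and 2478, 2331 and 2242 with shRNA #2. With shRNA #1 it overlapped the controls (-0.04, SE 0.0495, limma adjusted p = 0.48), and with shRNA #2 it lay far below them (-0.92, SE 0.0594, limma adjusted p = 4.2e-07).

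CREB3 and CREB3L2 are membrane-bound transcription factors activated by the same proteases as ATF6. CREB3L2 had 3897, 3814 and 4205 normalised counts with NS shRNA, 2312, 2301 and 1992 with shRNA #1, and 3343, 3542 and 3117 with shRNA #2. Both hairpins lay below the controls, shRNA #1 the lower of them, at -0.85 (SE 0.0689, limma adjusted p = 4.7e-06) and -0.25 (SE 0.0647, limma adjusted p = 0.0055). CREB3 was at 0.00 with shRNA #1 and, called, at 0.27 with shRNA #2, a call lost without shRNA #2 replicate 1 (0.24) and with upper quartile scaling (0.18). WFS1 encodes wolframin, an ER membrane protein linked to calcium and to the restraint of ATF6. It was lower with both, at -0.79 and -0.77, with 1422, 1470 and 1512 normalised counts with NS shRNA and 826 to 892 in the 6 knockdown libraries.

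**Figure D4:**
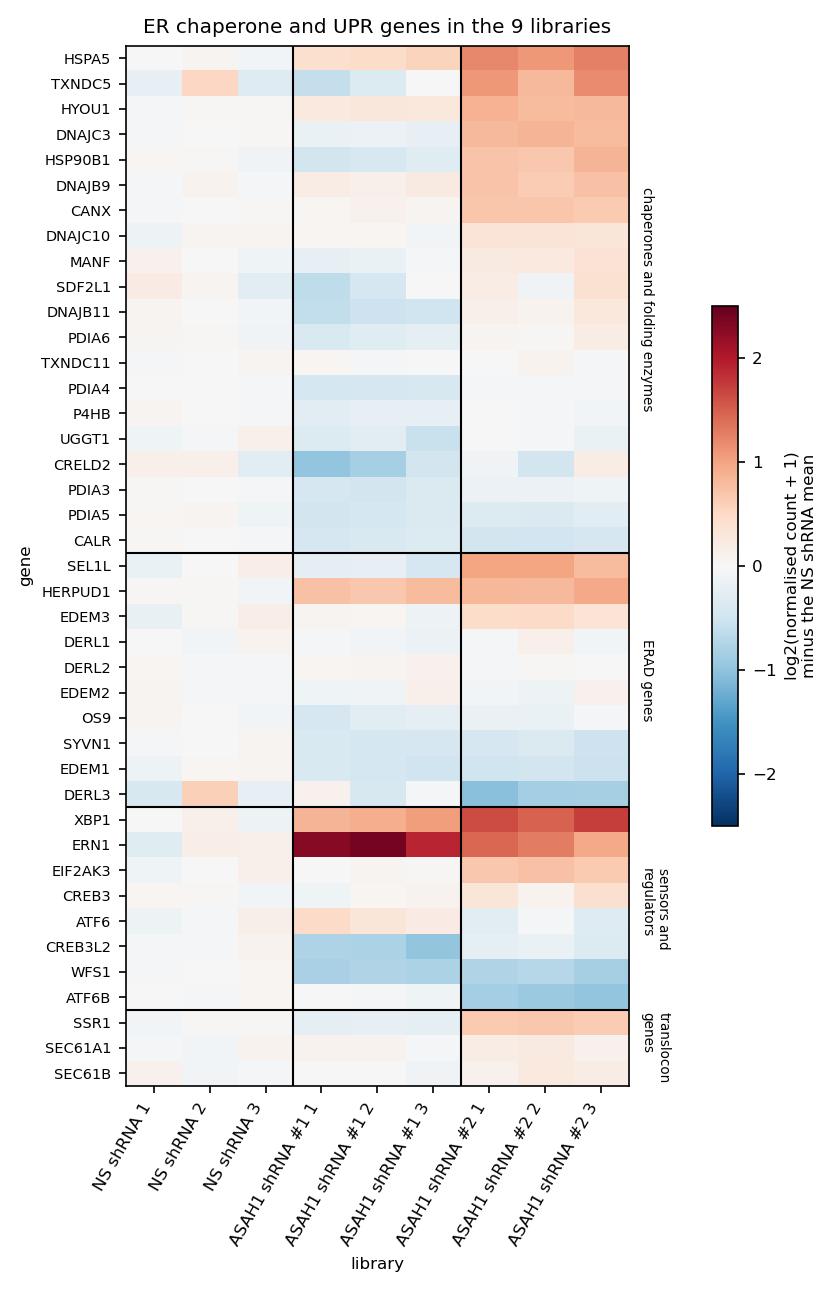
Level of each gene (rows, grouped by role) in each of the 9 libraries (columns), as log2(normalised count + 1) minus the mean of the 3 NS shRNA libraries; red is higher and blue lower. The 3 libraries of a group look alike within each gene, HSPA5, HERPUD1, XBP1 and ERN1 are red with both hairpins, and most folding enzymes are blue with shRNA #1 and near white with shRNA #2.

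Translocon genes, which pass nascent chains into the ER, differed most for SSR1, a subunit of the translocon-associated protein complex. SSR1 had 10350, 11082 and 10999 normalised counts with NS shRNA, 9187, 9371 and 9080 with shRNA #1, and 17092, 17286 and 16870 with shRNA #2. The groups did not overlap, with shRNA #1 lowest and shRNA #2 highest, at -0.23 (SE 0.0443, limma adjusted p = 0.0013) and 0.66 (SE 0.0498, limma adjusted p = 1.2e-06).

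The channel subunits changed less. SEC61A1 had 12304, 11964 and 13200 normalised counts with NS shRNA, 13308, 13254 and 12099 with shRNA #1, and 14258, 14615 and 13489 with shRNA #2, and was called with shRNA #2 alone at 0.18 (SE 0.0559, limma adjusted p = 0.016). SEC61B had 2870, 2526 and 2598 with NS shRNA, 2669, 2658 and 2503 with shRNA #1, and 2848, 3144 and 3013 with shRNA #2, and was called with shRNA #2 alone at 0.17 (SE 0.0663, limma adjusted p = 0.039) although the ranges overlapped. Neither call held throughout. SEC61A1 lost it without NS shRNA replicate 2 (0.15) and without shRNA #2 replicate 1 (0.17) or 2 (0.15). SEC61B lost it without NS shRNA replicate 2 (0.14) or 3 (0.15) and without shRNA #2 replicate 2 (0.14) or 3 (0.17). The SEC61B call was also lost without the intensity trend. With upper quartile scaling SEC61A1 was at 0.089 (limma adjusted p = 0.18) and SEC61B at 0.084 (limma adjusted p = 0.30), neither called.

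Calls of the members that hold a motif were set beside each other, as a description. Of the 7 genes with an ERSE, 2 were higher and 4 lower with shRNA #1, 4 were higher and 1 lower with shRNA #2, and 6 were higher with shRNA #2 than with shRNA #1. The shares over all genes tested were 32.8% higher and 33.3% lower with shRNA #1, and 33.5% and 33.4% with shRNA #2. Between the hairpins 31.4% were higher. No test was run over these few genes. HSPA5 and XBP1 rose with both hairpins, HSP90B1 fell and rose, and CALR fell with both, so genes with the same element in the sequences shown did not share a direction against NS shRNA. Of the 3 genes with ERSE-II, HYOU1 and HERPUD1 were higher with both and SDF2L1 was called with neither.

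Other genes of the pathway were counted from lists of the same roles. Of 20 further translocation and glycosylation genes, 3 were higher and 9 lower with shRNA #1, 13 were higher and 3 lower with shRNA #2, and 14 were higher and 1 lower with shRNA #2 than with shRNA #1. Some examples were chosen after their values were seen. The signal peptidase subunit SPCS3 was at -0.38 and 0.36, the oligosaccharyltransferase subunit OSTC at -0.34 and 0.40, and the cargo receptor LMAN1 at -0.36 and 0.40. Others of that list kept their direction, such as SEC11A at -0.63 and -0.43 and SEC63 at 0.31 and 0.81. Of 15 further folding genes, 2 were higher and 9 lower with shRNA #1, 4 were higher and 5 lower with shRNA #2, and 7 were higher and 3 lower with shRNA #2 than with shRNA #1. Of 16 further ERAD genes, 5 were higher and 6 lower with shRNA #1, 5 were higher and 4 lower with shRNA #2, and 6 were higher and 5 lower between the hairpins. The ERAD counts are near the shares over all genes tested, which were 32.8% higher and 33.3% lower with shRNA #1, 33.5% and 33.4% with shRNA #2, and 31.4% and 32.5% between the hairpins. Of 6 further regulators 5 were tested, with 1 higher and 1 lower with shRNA #1 and 2 in each direction with shRNA #2.

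PERK branch outputs behaved differently from the chaperones. All 5 tested, ATF4, DDIT3, ATF3, TRIB3 and PPP1R15A, were higher with both hairpins, beside 32.8% and 33.5% of all genes tested. Their median log2 fold changes were 2.47 and 1.22, and those of all genes 0.00 and 0.01. The list was chosen with earlier results of these data known. DDIT3 (CHOP), the proapoptotic factor of the branch, was at 2.47 (limma adjusted p = 5.2e-09) with shRNA #1 and 1.16 (limma adjusted p = 5e-07) with shRNA #2. Compared directly, where 32.5% of all genes tested were lower and 31.4% higher, 4 of the 5 were lower with shRNA #2 than with shRNA #1. ATF4 was higher, as were 17 of the 20 chaperones. These outputs can also be reached through other eIF2 alpha kinases, which the counts do not tell apart.

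**Figure D5:**
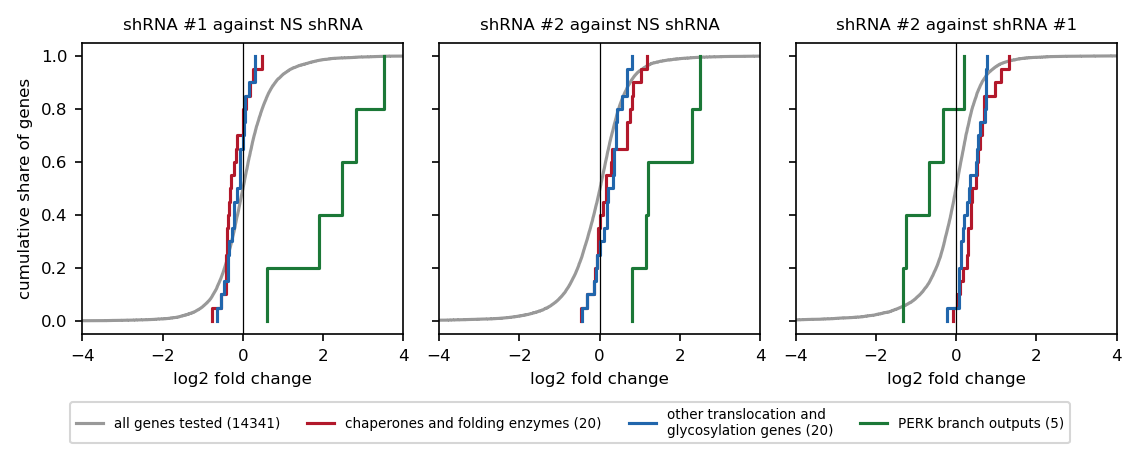
Cumulative share of genes (y axis) by log2 fold change (x axis) in the 3 comparisons, for all genes tested (14341 in the first panel, 14250 and 14381 in the others), the 20 chaperones and folding enzymes, 20 other translocation and glycosylation genes and the 5 PERK branch outputs; the legend gives the number of genes. The chaperone curve crosses 0 in the panels against NS shRNA, with its median at -0.31 with shRNA #1 and 0.16 with shRNA #2, while the PERK outputs lie right of 0 with both and mostly left of 0 between the hairpins.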

How the data were processed

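RNA sequencing of 9 MDA-MB-231 libraries was analysed, 3 per shRNA. Per the labels, polyadenylated RNA was made into strand-specific libraries, while the series' design text names ribosomal depletion with random priming. Per the submitters' processing notes, the authors used Trimmomatic 0.36, STAR 2.7.1a, HTSeq and DESeq2 1.28 with hg38. The deposited values are read counts per gene divided by DESeq2 size factors (a normalised signal), made separately for each hairpin with the same NS shRNA libraries. The log2 fold changes, p-values and Wald scores of the authors' comparisons were deposited too and not used.

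Dividing by the smallest step gave whole reads for 100% of values within 0.01. Per table, limma 3.58.1 with an intensity trend was run on log2(value + 1) for genes with a mean of at least 10. The hairpins were compared by edgeR 4.0.16 (quasi-likelihood, TMM) on the reads of all 9 libraries. Tests were two-sided, with Benjamini-Hochberg adjustment over all genes. The tests were also run on simulated data in which far fewer genes changed than were called here. That check does not cover the scaling where so many genes change. Values shown for 9 libraries are reads divided by 1 set of size factors. Full statistics were given to HSPA5, XBP1, ERN1, EIF2AK3, ATF6 and the 3 called members of each role with the largest change per comparison. HSP90B1 was added after its values were seen. So were counts, without full statistics against NS shRNA, for DNAJC3, CALR, CANX and WFS1, and the examples of the other lists. The members and lists were chosen with earlier results of these data known. Alternatives were other pseudocounts, filters, scalings and tests, a replicate block and leaving out each library. P-values measure the spread between these libraries, which may be technical in part. Depths were 23806003 to 49659106 reads on genes per library, and precision was lowest for DERL3 (11 to 37 reads).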

Additional observations from a re-analysis of the deposited data

Results flagged for a closer look

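For 5 members, shRNA #1 and shRNA #2 were called in opposite directions against NS shRNA, and the difference between the hairpins was itself called by edgeR. The share of all genes with such opposite calls was not counted, so 5 is not read as a trait of these genes. Of all genes tested, 32.8% were called higher and 33.3% lower with shRNA #1, and 33.5% and 33.4% with shRNA #2. HSP90B1 was at -0.39 with shRNA #1 and 0.75 with shRNA #2, a difference of 1.12 (SE 0.059, edgeR adjusted p = 3.6e-08). DNAJC3 was at -0.17 and 0.82, a difference of 0.97 (SE 0.0439, edgeR adjusted p = 1.2e-08). SEL1L was at -0.29 and 0.93, a difference of 1.20 (SE 0.0887, edgeR adjusted p = 5e-07). SSR1 was at -0.23 and 0.66, a difference of 0.88 (SE 0.04, edgeR adjusted p = 1.3e-08). ATF6 was at 0.33 and -0.22, a difference of -0.56 (SE 0.0917, edgeR adjusted p = 0.00024), and in its case NS shRNA and shRNA #2 libraries overlapped. The opposite calls of DNAJC3, SEL1L and ATF6 did not hold under every alternative run, whereas those of HSP90B1 and SSR1 did. The 5 genes were picked by these calls, so the separation of their libraries adds no support. The first 4 were higher in all 3 shRNA #2 libraries than in any shRNA #1 library, and ATF6 was lower. ASAH1 itself was left at 29.6% with shRNA #1 and 16.1% with shRNA #2, and whether the depth of the knockdown or the sequence of the hairpin goes with these differences cannot be told apart.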

How the results depend on the processing

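Of the 41 members, 28 with shRNA #1, 27 with shRNA #2 and 27 between the hairpins kept their direction and their side of the threshold under every alternative run. Calls were lost under at least 1 alternative for 3, 6 and 6 members, gained for 2, 3 and 4, and the sign of an uncalled value near 0 changed for 8, 5 and 4. The replicate numbers did not pair the libraries (same-number correlations of -0.30 to 0.20). With the number as a replicate block 6 members were higher and 16 lower with shRNA #1. The block gave 17 and 8 with shRNA #2, and 25 and 3 between the hairpins. Over all genes tested it gave 4120 higher and 4117 lower of 14341, 4246 and 4280 of 14250, and 4199 and 4391 of 14381. With upper quartile scaling the median over all genes tested with shRNA #2 was -0.08 in place of 0.01. Of those 14250 genes, 4004 were higher and 5522 lower, in place of 4780 and 4758. Among the members 16 were higher and 12 lower. Between the hairpins that scaling gave 22 members higher and 7 lower, against 26 and 4. Over all 14381 genes it gave 3741 higher and 5475 lower, against 4511 and 4677, with a median of -0.08. Under that scaling CALR was called lower between the hairpins (-0.16), as it was with a mean of at least 50 (-0.10) and without shRNA #2 replicate 3 (-0.11).

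Role medians moved as follows. ERAD genes with shRNA #1 were at -0.14 by edgeR and -0.13 by DESeq2, and at -0.19 to -0.07 with single libraries left out. ERAD genes with shRNA #2 were at 0.0039 with a mean of at least 50, at -0.10 with upper quartile scaling and at -0.049 to 0.00014 with libraries left out, and between the hairpins at -0.043 with upper quartile scaling, 0.075 with the filter at 50 and 0.017 to 0.061 with libraries left out. Chaperones with shRNA #2 were at 0.073 with upper quartile scaling and at 0.082 (without shRNA #2 replicate 3) to 0.24 (without shRNA #2 replicate 2), and between the hairpins at 0.38 and at 0.38 to 0.49. Sensors with upper quartile scaling were at -0.065 with shRNA #2 and 0.054 between the hairpins, and translocon genes at 0.089 and 0.12 (0.115). Translocon genes with shRNA #1 were at -0.067 to 0.027 (without NS shRNA replicate 1) with libraries left out.

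Signs that changed with a library left out, with the lowest and highest log2 fold change, were with shRNA #1 those of DNAJC10 (-0.059 to 0.045), TXNDC11 (-0.028 to 0.031), EDEM2 (-0.099 to 0.025), EDEM3 (-0.10 to 0.076), DERL3 (-0.31 to 0.19), EIF2AK3 (-0.019 to 0.10), CREB3 (-0.038 to 0.064) and SEC61B (-0.067 to 0.027). With shRNA #2 they were those of TXNDC11 (-0.0087 to 0.055), CRELD2 (-0.27 to 0.050), EDEM2 (-0.10 to 0.019), DERL1 (-0.052 to 0.048) and DERL2 (-0.012 to 0.031). Between the hairpins they were those of TXNDC11 (-0.020 to 0.041), SYVN1 (-0.070 to 0.016), EDEM2 (-0.098 to 0.061) and WFS1 (-0.021 to 0.037). Upper quartile scaling reversed CREB3 with shRNA #1 (-0.00086), TXNDC11 (-0.066), DERL1 (-0.081) and DERL2 (-0.086) with shRNA #2, and TXNDC11 (-0.062) and WFS1 (-0.072) between the hairpins. A mean of at least 50 reversed TXNDC11 (-0.00020) and WFS1 (-0.010) between the hairpins, and DESeq2 reversed DERL2 with shRNA #2 (-0.0015). The cause was not tested.

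Between the hairpins, P4HB lost its call with upper quartile scaling (0.10), SDF2L1 without shRNA #1 replicate 1 (0.38) or 2 (0.45) and without shRNA #2 replicate 1 (0.50) or 3 (0.38), OS9 without NS shRNA replicate 2 (0.17), shRNA #1 replicate 1 (0.12) or 2 (0.18) and shRNA #2 replicate 3 (0.13), CREB3 without shRNA #1 replicate 1 (0.20) and shRNA #2 replicate 1 (0.24) or 3 (0.18), SEC61B without shRNA #1 replicate 3 (0.16) and shRNA #2 replicate 2 (0.16), and DERL3 without shRNA #1 replicate 1 (-0.73) or 3 (-0.78) or any shRNA #2 library (-0.88 to -0.77). OS9, CREB3 and SEC61B also lost theirs with upper quartile scaling, OS9 and DERL3 with the replicate block, and DERL3 with DESeq2 or no filter. Calls were gained with shRNA #1 by SDF2L1 (-0.50 and -0.53) and MANF (-0.19 and -0.18) without NS shRNA replicate 3 or shRNA #1 replicate 3, with shRNA #2 by DNAJB11 without NS shRNA replicate 1 (0.19) or shRNA #2 replicate 2 (0.19) and by OS9 without NS shRNA replicate 3 (-0.17) or shRNA #2 replicate 3 (-0.17), and between the hairpins by SEC61A1 without NS shRNA replicate 3 (0.12) or shRNA #2 replicate 3 (0.15). Upper quartile scaling brought calls for PDIA4 (-0.12) and OS9 (-0.22) with shRNA #2 and for DERL2 (-0.16) and EDEM1 (-0.14) between the hairpins. With the replicate block and unchanged fold changes, calls were lost with shRNA #1 by DNAJB9 (limma adjusted p = 0.093), DNAJC3 (0.066) and SEL1L (0.051), and with shRNA #2 by PDIA3 (0.16), ATF6 (0.081), SEC61A1 (0.081) and SEC61B (0.12), so that 3 of the 5 pairs of opposite calls against NS shRNA ended there.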

Other observations

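Some genes of the further folding and ERAD lists are given here, chosen after their values were seen. Between the hairpins those lists went both ways, with 7 higher and 3 lower of 15 folding genes and 6 higher and 5 lower of 16 ERAD genes, beside 31.4% and 32.5% of all genes tested. VCP, the ATPase that pulls ERAD substrates from the membrane, was at -1.32 (limma adjusted p = 6.9e-08) with shRNA #1 and 0.14 (limma adjusted p = 0.074) with shRNA #2, a difference between the hairpins of 1.45 (edgeR adjusted p = 7.6e-09). FKBP14, a prolyl isomerase of the ER, was at -0.23 and 1.01, a difference of 1.23 (edgeR adjusted p = 3.9e-08). TMX1, a membrane-bound thioredoxin of the ER, was at -0.65 and 0.15, a difference of 0.78 (edgeR adjusted p = 5.4e-08). ERO1A, the oxidase that recharges protein disulfide isomerases, was lower with both, at -0.65 and -0.30. Called lower with shRNA #2 than with shRNA #1 by edgeR were, among others, UFD1L (-0.45), a partner of VCP, and AUP1 (-0.39), RNF5 (-0.39), TMX4 (-0.28) and MOGS (-0.27).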
